A study of Mus musculus with 4 samples.

Results

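The genes described here are 9 neutrophil genes, Ltf, Camp, Ngp, Lcn2, Mmp8, Mmp9, Olfm4, Chil3 and Cd177, whose proteins are stored in the secondary (specific) or tertiary (gelatinase) granules of neutrophils or, for Chil3 and Cd177, are made or carried together with that cargo. They were chosen by gene symbol as known granule genes, with earlier results of these data known but by a rule that uses no level, and all 9 of 9 were found among the 28585 gene identifiers measured, each under 1 identifier. They were followed in PMN-MDSCs, polymorphonuclear myeloid-derived suppressor cells, which are neutrophil-like cells that restrain immune responses.

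Bulk RNA sequencing covered 4 libraries of total RNA from PMN-MDSCs isolated from mouse spleen on postnatal day 7. The 2 Dhps cko libraries came from Dhps fl/fl Lysm cre pups, in which both alleles of Dhps carry loxP sites and a Cre recombinase is expressed from the lysozyme locus Lyz2, a promoter active in neutrophils, monocytes and macrophages. The 2 Dhps flox libraries came from Dhps fl/fl pups, which carry the same floxed alleles without Cre. Dhps encodes deoxyhypusine synthase, the enzyme that starts the hypusine modification of the translation factor eIF5A. The methods give a C57BL/6J background, pups of both sexes and CD11b+ Ly6C lo/- Ly6G+ as the definition of mouse PMN-MDSCs. Nothing states whether a library was 1 pup or a pool, or whether replicates came from separate animals, so the p-values below measure only the spread between these samples. The comparison asks whether the transcript levels of the granule genes differ between pups with and without this myeloid deletion of Dhps. Only the Dhps cko pups carry the Cre at Lyz2, so effects of the Cre insertion and of Dhps loss cannot be told apart.

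Neutrophils make their granules one after another as they mature in the bone marrow and, in newborns, in the spleen. Primary granules with myeloperoxidase and serine proteases are filled in promyelocytes, specific granules with lactoferrin and cathelicidin in myelocytes and metamyelocytes, and gelatinase granules in band cells. A protein enters the granule type that is being formed when its gene is transcribed, and the specific granule genes depend on the transcription factor C/EBP epsilon, encoded by Cebpe. Cells that have passed these stages keep the proteins while the transcripts decline, so the transcripts mark late precursors more than the oldest neutrophils.

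The genes lie on 5 chromosomes, and Camp, Ngp and Ltf sit near one another on mouse chromosome 9. In GRCm38 with the GENCODE M21 annotation, Camp (ENSMUSG00000038357) spans chr9:109847379-109849617 on the minus strand. Ngp (ENSMUSG00000032484) lies 570 kb beyond it at chr9:110419747-110423012, and Ltf (ENSMUSG00000032496) a further 596 kb along at chr9:111019271-111042767, both on the plus strand. Between Camp and Ngp the annotation places 8 protein-coding genes, and between Ngp and Ltf 20. Of the coding genes between Camp and Ltf other than Ngp, 19 were listed under their identifiers, with a median of the mean levels of 2.27 FPKM. Nbeal2, needed for granule formation in platelets and neutrophils and named here after its values were seen, was the most abundant of them, at 60.34 to 71.21 FPKM. The granule genes of this stretch therefore stood among neighbours with far lower levels. FPKM, the unit of the deposited values, is a count of fragments scaled by transcript length and by library depth.

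Mmp8 (ENSMUSG00000005800) lies elsewhere on the same chromosome, at chr9:7558456-7568485 on the plus strand. Lcn2 (ENSMUSG00000026822) spans chr2:32384633-32388252 on the minus strand and Mmp9 (ENSMUSG00000017737) chr2:164940780-164955850 on the plus strand. Chil3 (ENSMUSG00000040809) is at chr3:106147554-106167564 and Cd177 (ENSMUSG00000052212) at chr7:24743983-24760311, both on the minus strand. Olfm4 (ENSMUSG00000022026) is at chr14:79984081-80023139 on the plus strand, and 5.17% of its exon bases overlap the gene model Gm6999 on the same strand, so some of its reads could have been counted there. The exons of the other 8 genes overlap no other annotated gene.

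Because the specific granule genes are known targets of C/EBP epsilon, the 250 bases before the RefSeq start of each gene were searched for the letters TTGCNNAA, one form of the C/EBP recognition sequence, on both strands. RefSeq promoters on GRCm38.p6 were matched for 8 of the 9 genes, all but Mmp9. The letters occurred in 4 of these 8 promoters, those of Ltf, Ngp, Lcn2 and Mmp8, and in 9.56% of the 32851 promoters of the same length in the table. The letters GAGGAA, a core recognised by the myeloid factor PU.1 that shares no bases with these C/EBP matches, occurred on either strand in 5 of the 8, those of Ltf, Lcn2, Mmp8, Olfm4 and Cd177, and in 23.3% of all promoters. The C/EBP matches are shown, 5′ to 3′ along the strand of the gene with 11 bases on either side, because they let the promoters of the 4 genes be compared, and capitals mark the matching letters. The first lies 75 bases before the RefSeq start of Ltf at chr9:111019206-111019235, and the second 138 bases before that of Ngp at chr9:110419659-110419688. The third lies 216 bases before that of Lcn2 at chr2:32387937-32387966 on the minus strand, and the last 19 bases before that of Mmp8 at chr9:7558399-7558428. These RefSeq starts differ from the GENCODE coordinates given above, and the Lcn2 window lies inside the GENCODE span of that gene.
Ltf: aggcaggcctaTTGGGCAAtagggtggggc
Ngp: gtcctggtttaTTGCCCAAacctccttgcc
Lcn2: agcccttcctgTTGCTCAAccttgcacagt
Mmp8: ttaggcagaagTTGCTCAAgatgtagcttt

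The match of Ltf is on the opposite strand and is the reverse complement of that of Ngp, and Lcn2 and Mmp8 hold the same letters, TTGCTCAA, on the strand of the gene. The windows of Ltf, Ngp and Mmp8 lie outside annotated exons, whereas all 30 bases of the Lcn2 window fall in an exon of a GENCODE transcript. Ngp has a second match on the opposite strand, TTGGGCAA, 11 bases before its RefSeq start and inside an annotated exon. A match of letters describes these windows only, and binding was not measured.

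The label of the libraries was checked first with the targeted gene. Dhps was at 2.38 and 2.59 FPKM in Dhps cko replicates 1 and 2. In Dhps flox replicates 1 and 2 it was at 3.57 and 3.11 FPKM. Dhps was present in all 4 and lower in both Dhps cko libraries, as were 16% of all genes tested. In the test described below its log2 fold change was -0.41 (limma adjusted p = 0.629), so the difference in Dhps did not pass the threshold. Lyz2, whose locus carries the Cre, was at 2245 and 2380 FPKM in Dhps cko and at 6874 and 6544 FPKM in Dhps flox. Defining markers of the sorted cells were abundant: Itgam, which encodes CD11b, ranged from 563 to 595 FPKM and Ly6g from 184.8 to 242 FPKM. Ly6c2, a gene of the Ly6C antigen for which the gate takes low or negative cells, was also present, at 158 to 192 FPKM, whereas Ly6c1, picked with its values in view, stood at 8.18 to 10.5 FPKM. FPKM keep no read counts, and the steps between low values gave only rough depths of 29400000 to 32400000 fragments a library. At those depths, from about 60000 fragments for Mmp8 to about 1105000 for Ngp stood behind a value, so counting error was at most 0.409% and the spread between libraries was far larger.

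The granule genes were among the most abundant transcripts of these cells. All 9 were among the 30 genes with the highest mean level, 5 were in the top 20 and 3 in the top 10. Their summed level was 47470 and 47761 FPKM in Dhps cko replicates 1 and 2, and 46341 and 45361 FPKM in Dhps flox replicates 1 and 2. This was 15.1% and 15.0% of the FPKM sum in Dhps cko and 14.7% and 14.9% in Dhps flox. Ngp alone made up 57.8% to 58.8% of the summed level. The other genes of the top 20 included the alarmins S100a9 and S100a8, with means of 26333 and 7981 FPKM, and the stefin genes Stfa2l1, Stfa1, Stfa2 and Stfa3. The summed level of the 9 genes was thus a nearly constant share of every library.

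**Figure D1:**
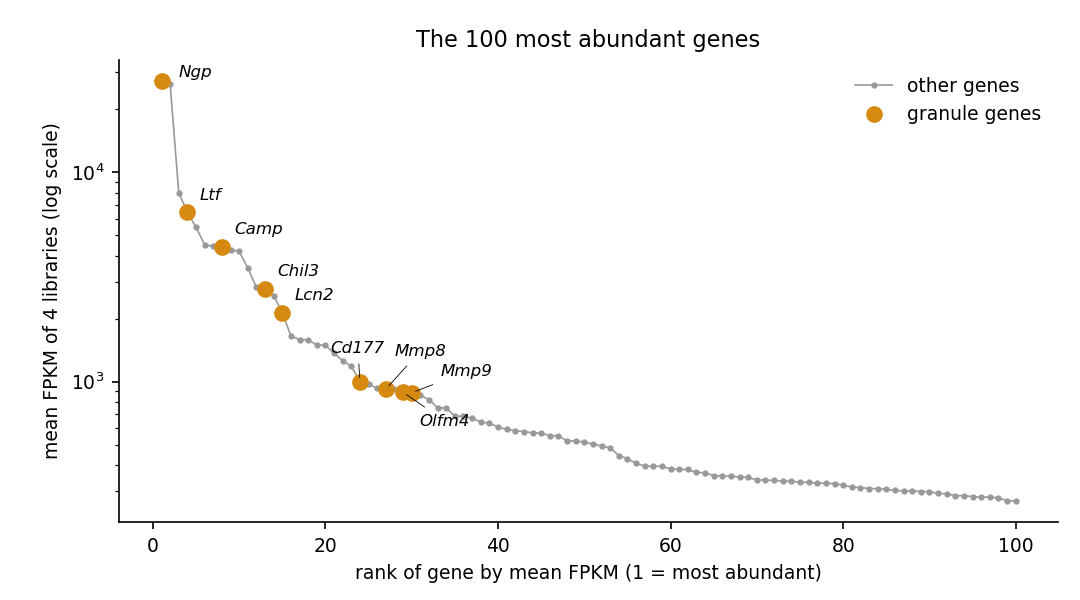
The 100 genes with the highest mean level are ordered along the x axis by rank and plotted by mean FPKM of the 4 libraries on a log scale, with the 9 granule genes as orange points and all others as grey points. Ngp takes rank 1, and the granule gene with the lowest mean takes rank 30.

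The order of the 5 most abundant granule genes was the same in every library, and their ranges over the 4 libraries did not overlap. Ngp stood first, at 4.07 to 4.46 times the level of Ltf. Ltf was at 1.35 to 1.57 times the level of Camp, Camp at 1.48 to 1.63 times that of Chil3, and Chil3 at 1.26 to 1.41 times that of Lcn2. A wider step, 2.03 to 2.24 fold, separated Lcn2 from Cd177. Cd177, Mmp8, Olfm4 and Mmp9 then fell between 838.86 and 1031 FPKM, and each neighbouring pair in this lower group overlapped. The range of Cd177 lay above those of Olfm4 and Mmp9 but overlapped that of Mmp8, and the order of Mmp8, Olfm4 and Mmp9 could not be set. FPKM is scaled by length, which allows such comparisons between genes, although the scaling depends on the transcript models used.

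**Figure D2:**
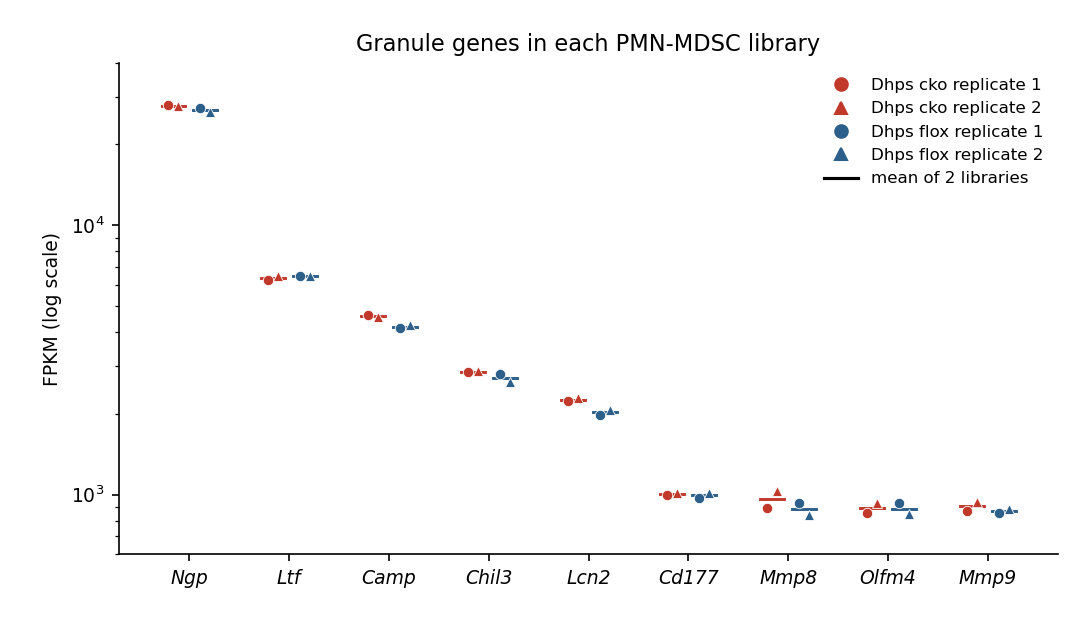
Each of the 9 genes is plotted along the x axis with its FPKM in each library on a log y axis, Dhps cko in red and Dhps flox in blue, circles for replicate 1, triangles for replicate 2 and a short bar for the mean of the 2 libraries. The steps between the 5 genes on the left exceed the spread between libraries, whereas the 4 on the right lie together between 838.86 and 1031 FPKM.

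None of the 9 granule genes passed the test between genotypes, and their means differed by 11.04% at most. The widest gaps, in Lcn2 and Camp, exceeded the SD of their own replicates without passing the threshold. A p that misses it with 2 libraries a genotype does not show that levels were equal. The comparison used limma, a linear model of each gene that borrows information on the spread from all genes. It was fitted to log2(FPKM + 0.1) of the 17948 genes whose mean reached 0.1 FPKM, and fold changes are on this scale. With Benjamini-Hochberg adjustment over all genes, 0 of the 9 had an adjusted p under 0.05, where 0.00557% of all genes tested did (1 gene), and 0 of the 9 had an unadjusted p under 0.05, where 7% of all genes did. The 95% intervals of the 9 fold changes, Dhps cko over Dhps flox, lay between 0.832 and 1.30. Each was taken for 1 gene at a time and reflects only the spread between these samples. For a single gene, exact permutation of 2 and 2 libraries reaches a p of 0.333 at best.

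Both Dhps cko libraries lay above both Dhps flox libraries for 4 of the 9 genes, Ngp, Camp, Chil3 and Lcn2, and this held for 20% of all genes tested. Both Dhps cko libraries lay below both Dhps flox libraries for 0 of the 9 and for 16% of all genes. The other 5 genes overlapped between genotypes. For the 9 genes the median log2 fold change was 0.06 with 8 of 9 above 0, beside 0.01 for all genes tested, of which 52.1% were above 0. Among the 23 other genes averaging 800 FPKM or more, a level set after the values were seen so as to match the granule genes, the median was 0.09 and 20 of 23 were above 0. The small positive median of the granule genes was thus no larger than that of other genes of like abundance, and it lay between 0.02 and 0.05 under the 4 other scalings of the libraries. The number of granule genes above 0 was then 5 with quantile normalization, 6 with equal FPKM sums, with or without the 20 most abundant genes, and 8 with median-of-ratios size factors. Without Dhps cko replicate 2 the median was 0.01 with 7 of 9 above 0, and without Dhps cko replicate 1 it was 0.09 with 9 of 9 above 0.

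**Figure D3:**
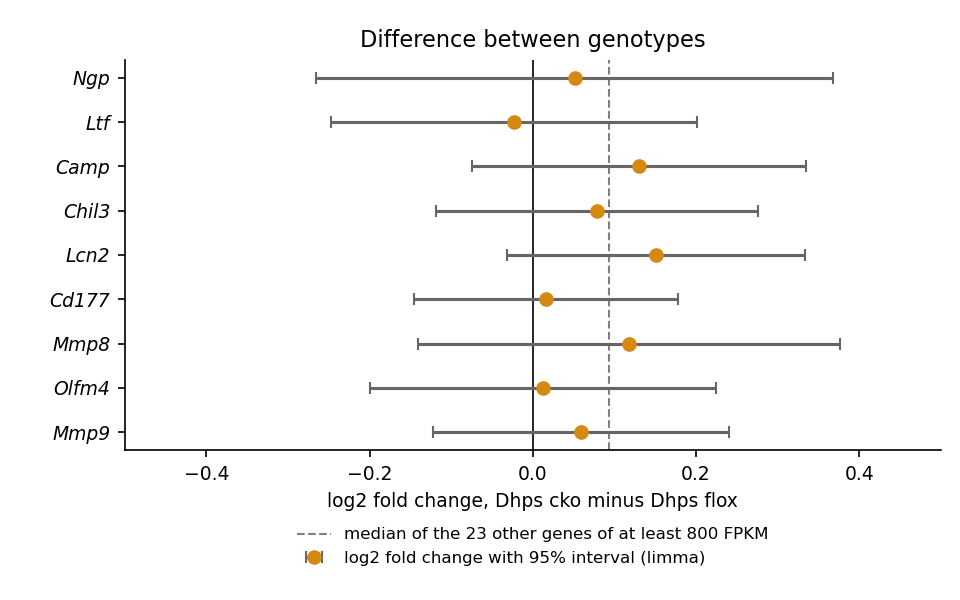
The log2 fold change of each granule gene, Dhps cko minus Dhps flox, is plotted on the x axis as a point with its 95% interval from limma, and the dashed line marks the median of the 23 other genes averaging 800 FPKM or more (0.09). Every interval includes 0, and the points run from -0.02 for Ltf to 0.15 for Lcn2.

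Among the antimicrobial proteins of specific granules, Ngp encodes neutrophilic granule protein, a member of the cystatin superfamily related to cathelicidins. It was at 27902 and 27612 FPKM in Dhps cko replicates 1 and 2, against 27249 and 26339 FPKM in Dhps flox replicates 1 and 2. It ranked first among all genes in 3 libraries and second, after S100a9, in Dhps cko replicate 2. The means were 27757 ± 205 FPKM (SD, n = 2) in Dhps cko and 26794 ± 643 FPKM (SD, n = 2) in Dhps flox, 3.59% higher in Dhps cko. Although the genotypes did not overlap, the log2 fold change was 0.05 (SE 0.12, limma adjusted p = 0.963), and it was 0.03 without Dhps flox replicate 2 and -0.03 under quantile normalization.

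Ltf encodes lactoferrin, the iron-binding protein used as the standard marker of specific granules. Its levels were 6259 and 6506 FPKM in Dhps cko and 6491 and 6477 FPKM in Dhps flox. The genotypes overlapped, with the lowest and the highest library both Dhps cko. Over the 4 libraries Ltf had the smallest coefficient of variation of the 9 genes, 1.81%, and the fold was 0.984 (95% interval 0.843 to 1.15, limma adjusted p = 0.977). It was the 1 granule gene with a mean below that of Dhps flox, and under quantile normalization its log2 fold change was 0.12.

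Camp encodes the cathelicidin antimicrobial peptide CRAMP, released from a precursor protein after exocytosis. It was at 4639 and 4565 FPKM in Dhps cko and at 4141 and 4267 FPKM in Dhps flox, so that both Dhps cko values were higher. The means, 4602 ± 52.4 FPKM (SD, n = 2) and 4204 ± 88.8 FPKM (SD, n = 2), differed by 9.45%. On the model's scale the fold was 1.09 (95% interval 0.950 to 1.26, limma adjusted p = 0.798). Its log2 value stayed above 0 under every alternative tried, between 0.09 and 0.16.

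Lcn2 encodes neutrophil gelatinase-associated lipocalin, which binds bacterial siderophores and so withholds iron. Its levels were 2219 and 2277 FPKM in Dhps cko and 1981 and 2069 FPKM in Dhps flox. The 2 Dhps cko libraries were above the 2 Dhps flox libraries by 11.04% in the mean, the widest gap of the 9 genes. The log2 fold change was 0.15 (SE 0.07, 95% interval -0.03 to 0.33), with a limma adjusted p of 0.766, the lowest of the 9. Lcn2 ranked 15th among all genes in each library, and for that reason quantile normalization, which gives equal ranks equal values, set its difference to 0.

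Olfm4 encodes olfactomedin 4, a glycoprotein carried in the specific granules of only some neutrophils and also made by intestinal stem cells. It was at 855 and 933 FPKM in Dhps cko and at 929 and 844.65 FPKM in Dhps flox. The replicates of each genotype lay farther apart than the means, 894 ± 55.0 and 887 ± 59.5 FPKM (SD, n = 2 each). The fold was 1.01 (95% interval 0.871 to 1.17, limma adjusted p = 0.990), and the log2 value was -0.02 when the libraries were brought to equal FPKM sums. Epithelial genes were at low levels: 10 such genes summed to 14.02 and 9.49 FPKM in Dhps cko and to 25.6 and 4.24 FPKM in Dhps flox, with Lgr5, the gene of intestinal stem cells, at 0.04 FPKM or less and at 0 in Dhps flox replicate 2. Between the 2 Dhps flox libraries Olfm4 and the epithelial sum differed in the same direction, and between the 2 Dhps cko libraries in opposite directions. The part of epithelial RNA in its level was not tested.

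The collagenase and gelatinase genes had nearly equal levels. Mmp8 encodes neutrophil collagenase, which cleaves fibrillar collagen and is stored mainly in specific granules. It was at 890.0 and 1031 FPKM in Dhps cko and at 929 and 839 FPKM in Dhps flox. These were the most variable values of the 9 genes, with a coefficient of variation of 8.84% over the 4 libraries. Dhps cko replicate 2 was the high library, and the genotypes overlapped. The fold was 1.09 (95% interval 0.907 to 1.30, limma adjusted p = 0.839), and without Dhps cko replicate 2 the log2 fold change was 0.01.

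Mmp9 encodes gelatinase B, the enzyme that gives gelatinase granules their name and is the 1 gene here typical of tertiary granules. Its levels were 867 and 941 FPKM in Dhps cko and 852 and 883 FPKM in Dhps flox, with Dhps cko replicate 1 between the 2 Dhps flox libraries. The fold was 1.04 (95% interval 0.919 to 1.18, limma adjusted p = 0.901), and the log2 fold change was 0.00 without Dhps cko replicate 2. Mmp8 was at 1.03 and 1.10 times the level of Mmp9 in Dhps cko and at 1.09 and 0.950 times in Dhps flox. The ratio of the specific to the gelatinase granule protease therefore overlapped between genotypes.

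Chil3 encodes a chitinase-like protein (Ym1) secreted by neutrophil precursors and by alternatively activated and alveolar macrophages. It was at 2843 and 2879 FPKM in Dhps cko and at 2797 and 2624 FPKM in Dhps flox. Both Dhps cko libraries were above both Dhps flox libraries, although the nearest pair differed by less than the 2 Dhps flox libraries did. The fold was 1.06 (95% interval 0.921 to 1.21, limma adjusted p = 0.864). The log2 fold change, 0.08, was 0.03 without Dhps flox replicate 2 and 0.12 without Dhps flox replicate 1. A list of 6 alveolar macrophage genes summed to 105 and 102 FPKM in Dhps cko and to 85.4 and 84.1 FPKM in Dhps flox. The cells were sorted from spleen, not lung. Of the list, 5 of 6 were higher in Dhps cko, and Car4 was at 0 in all libraries but Dhps flox replicate 1. An unadjusted limma p under 0.05 was reached by 4 of the 6, all higher in Dhps cko, beside 7% of all genes in either direction. Most of the sum was Ear2, with means of 83.3 and 71.8 FPKM in Dhps cko and Dhps flox, whereas Marco, a scavenger receptor gene, was at 15.6 and 16.2 FPKM in Dhps cko and 9.42 and 9.12 FPKM in Dhps flox (log2 fold change 0.77, limma adjusted p = 0.238). The part of macrophage RNA in the level of Chil3 was not tested.

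Cd177 encodes a surface glycoprotein that is also held in specific granule membranes and is used as a marker of late neutrophil precursors. Its levels were 995 and 1017 FPKM in Dhps cko and 972 and 1017 FPKM in Dhps flox. The values of the genotypes overlapped fully, and the coefficient of variation over the 4 libraries was 2.15%. The fold was 1.01 (95% interval 0.904 to 1.13, limma adjusted p = 0.977), and the log2 value was -0.02 with equal FPKM sums.

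Between libraries the granule genes varied by a few percent. The median coefficient of variation over the 4 libraries was 4.39% for the 9 genes (1.81% to 8.84%), beside 9.73% for the 23 other genes averaging 800 FPKM or more (3.82% to 56.4%) and 5.69% for the 3759 genes that averaged 10 FPKM or more. These figures are descriptions with no test. Ratios between granule genes of a library do not change when all its values are multiplied by 1 factor, but quantile normalization can change them. The ratio of Cd177 to Mmp8 ran from 0.986 in Dhps cko replicate 2 to 1.21 in Dhps flox replicate 2, and that of Ngp to Camp from 6.02 in Dhps cko replicate 1 to 6.58 in Dhps flox replicate 1. Lcn2 was at 0.355 and 0.350 times Ltf in Dhps cko and at 0.305 and 0.319 times in Dhps flox. Camp was at 0.741 and 0.702 times Ltf in Dhps cko and at 0.638 and 0.659 times in Dhps flox. For Lcn2 and Camp over Ltf the 2 Dhps cko values were the higher ones in the deposited FPKM. Under quantile normalization the log2 fold change of Lcn2, 0, was below that of Ltf, 0.12, and that of Camp, 0.16, was above it. All of these ratios were picked after the values were seen.

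The genes whose profile over the 4 libraries lay nearest to the median profile of the granule genes were Cdk11b, Rsu1, Khdrbs1, Fgfr1op2 and Mpeg1. The likeness was the Euclidean distance between centred log2 profiles, over 4 libraries and among 3750 genes that averaged 10 FPKM or more, and it ran from 0.01 for Cdk11b to 0.02 for Mpeg1. The median profile itself was nearly flat, at -0.01 and 0.05 in Dhps cko replicates 1 and 2, against 0.00 and -0.04 in Dhps flox replicates 1 and 2. Among the 321 genes that averaged 100 FPKM or more, the nearest were Cfl1, Dazap2, Plbd1, Degs1 and Itm2b.

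Other genes for cargo of specific, gelatinase or secretory compartments were compared in the same fit. Of 14 tested, 10 were higher and 4 lower in Dhps cko, 0 had an adjusted p under 0.05 and 4 an unadjusted p under 0.05, beside 52.1% higher and 7% with such a p among all genes tested, with a median log2 fold change of 0.11. The most abundant were Retnlg, encoding a resistin-like protein, with means of 1669 and 1506 FPKM in Dhps cko and Dhps flox, Anxa1, encoding annexin A1, with 1496 and 1498 FPKM, and Hp, encoding haptoglobin, with 700.4 and 636 FPKM. The 4 with an unadjusted p under 0.05, named after their values were seen, were Pglyrp1, a peptidoglycan-binding protein gene (log2 fold change 0.17), Lrg1 (0.19), Cfp, encoding properdin (0.21), and Mmp25, encoding a membrane-bound metalloprotease (-0.27). The widest difference of the list was that of Ptx3, which encodes pentraxin 3 and is also named after its values were seen, at 1.72 and 1.1 FPKM in Dhps cko and 1.75 and 2.9 FPKM in Dhps flox (log2 fold change -0.67, limma adjusted p = 0.766). Mmp25 thus lay on the other side from Mmp8 and Mmp9, without passing the adjusted threshold, and the difference between these genes was not tested.

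Genes of granule membranes and of exocytosis split evenly in direction. Of 12 tested, 6 were higher and 6 lower, 0 had an adjusted p under 0.05 and 1, Cyba, named after its values were seen, an unadjusted p under 0.05 (log2 fold change 0.16), a share near the 7% of all genes. The integrin genes Itgb2 and Itgam and the oxidase gene Cybb, which encode membrane proteins carried by specific granules, were the most abundant, with means of 584 and 584 FPKM, 573 and 583 FPKM, and 505 and 536 FPKM in Dhps cko and Dhps flox.

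Of the transcription factors and the chromatin remodelling subunit known for granule gene expression, 9 of 9 were higher in Dhps cko, 0 had an adjusted p under 0.05, and their log2 fold changes had a median of 0.05. Cebpe was at 298 and 266 FPKM in Dhps cko and at 235 and 247 FPKM in Dhps flox. Both Dhps cko values were higher, with a log2 fold change of 0.23 (limma adjusted p = 0.652). Smarcd2, a SWI/SNF subunit needed for specific granules, was at 31.5 and 31.0 FPKM in Dhps cko and at 26.8 and 28.7 FPKM in Dhps flox, a log2 fold change of 0.17 with an unadjusted limma p under 0.05, as for Cebpe. These 2 of 9 stand beside 7% of all genes with such a p, and the 9 of 9 beside 52.1% of all genes higher. Spi1, which encodes PU.1, had means of 153 and 144 FPKM. These 3 regulators were far less abundant than the granule genes, and 0 passed the adjusted threshold.

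Genes of earlier and later stages of neutrophil maturation were measured beside them, and 0 of these passed the adjusted threshold. The 6 primary granule genes summed to 87.3 and 59.8 FPKM in Dhps cko and to 52.3 and 61.9 FPKM in Dhps flox, against 45361 FPKM or more for the 9 genes in each library. Their median log2 fold change was 0.43 with 5 of 6 higher and 0 with an unadjusted p under 0.05, and Dhps cko replicate 1 was the high library. Ms4a3, Elane and Mpo, the most abundant of them, had means of 22.5 and 21.2 FPKM, 18.8 and 12.6 FPKM, and 14.3 and 9.35 FPKM in Dhps cko and Dhps flox. Of 12 genes of late neutrophils, 8 were higher and 4 lower, with a median of 0.06, 1 with an unadjusted p under 0.05 in each direction, beside 7% of all genes in either direction, and 0 adjusted. Csf3r, the receptor of granulocyte colony-stimulating factor, was at 195 to 225 FPKM and the chemokine receptor Cxcr2 at 160 to 181 FPKM. Of 10 proliferation genes, 2 were higher and 8 lower, with 0 past either threshold, and their sum was between 372 and 409 FPKM in every library.

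**Figure D4:**
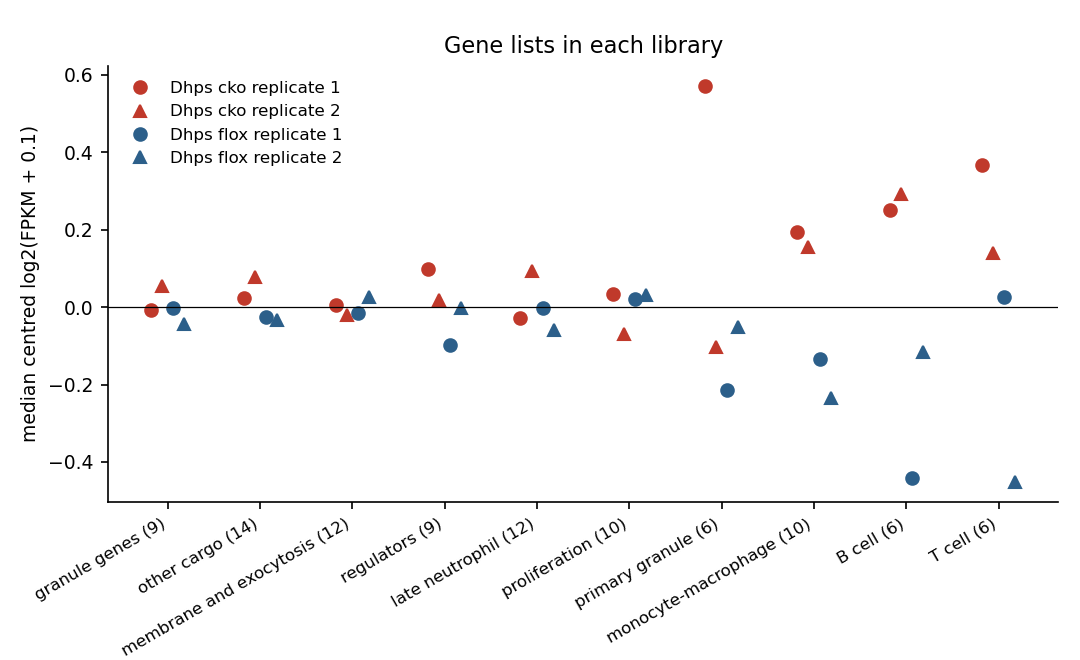
The y axis gives the median over each gene list of log2(FPKM + 0.1) centred on the mean of the 4 libraries, and the x axis the lists with the number of genes tested, Dhps cko in red and Dhps flox in blue, circles for replicate 1 and triangles for replicate 2. The median of the 9 granule genes stays between -0.04 and 0.05, while the medians of the primary granule and the B and T cell lists are spread more widely.

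Marker genes of other cells were present at lower levels and differed in part with genotype. The B cell list (6 of 6 higher in Dhps cko) summed to 62.8 and 65.4 FPKM in Dhps cko and to 40.3 and 49.4 FPKM in Dhps flox. The monocyte and macrophage list (10 of 10 higher) summed to 196 and 197 FPKM in Dhps cko and to 157 and 156 FPKM in Dhps flox. The T cell list (6 of 6 higher) summed to 12.4 to 15.2 FPKM and 6.81 to 10.1 FPKM, the eosinophil list (5 of 5) to 10.5 to 12.1 FPKM and 8.34 to 8.78 FPKM, and the basophil and mast cell list (2 of 3) to 8.15 to 8.68 FPKM and 3.3 to 7.23 FPKM. The erythroid list (6 of 6 higher) overlapped, at 549 to 668 FPKM in Dhps cko and 462 to 684 FPKM in Dhps flox. In these lists 0 genes passed the adjusted threshold. An unadjusted p under 0.05 was reached by 4 of the 6 B cell genes and 5 of the 10 monocyte and macrophage genes. It was also reached by 1 of the 6 T cell genes and 1 of the 5 eosinophil genes. All of these were higher in Dhps cko, and 7% of all genes had such a p in either direction. The part of these cells in the levels of the granule genes was not tested, and in bulk samples fewer cells of a type and less RNA per cell cannot be told apart. Ly6g, a gene of the sort gate, was at 222 and 242 FPKM in Dhps cko and at 195 and 184.8 FPKM in Dhps flox (log2 fold change 0.29, limma adjusted p = 0.529). Ly6c2 was higher in both Dhps cko libraries too, at 192 and 183.75 FPKM against 158 and 161 FPKM (log2 fold change 0.24, limma adjusted p = 0.515). The summed level of 4 Y-linked genes was 7.07 and 8.07 FPKM in Dhps cko and 17.6 and 15.6 FPKM in Dhps flox, so for the granule genes the sex of the pups and the genotype cannot be told apart.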

How the data were processed

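RNA of PMN-MDSCs from 2 Dhps cko and 2 Dhps flox samples was sequenced. Per the methods and processing notes, the authors trimmed reads with Cutadapt, aligned them to mm10 with HISAT2, and deposited FPKM per gene from StringTie and ballgown, 1 table a library. The annotation and the use of strand were not given in the sources used here. Of 28585 gene identifiers, 28511 were in GENCODE M21 (GRCm38) and 74 were not, and coordinates come from it. FPKM depend on the abundance of all other transcripts, so a few abundant genes can shift all values.

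The deposited FPKM of every gene averaging 0.1 FPKM or more were turned into log2(FPKM + 0.1). The genotypes were then compared by a two-sided moderated test (limma 3.58.1, R 4.3.3) whose prior variance followed a trend on the mean level, with Benjamini-Hochberg adjustment over all genes and a threshold of 0.05. The step was tested on simulated data. Depth was estimated from steps between low values. Between 41.1% and 44.4% of them lay within 0.15 of a whole step, beside 30% by chance, so reads were not recovered and no count test was run. Python 3.11.15 with pandas 2.3.3 was used for the other steps.

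The members and lists were chosen with earlier results of these data known. All 9 granule genes are named, and the rule also allowed Dhps, Lyz2, the 20 most abundant genes, the 5 genes nearest in profile, and of each list up to 3 genes with the highest mean and any with an adjusted p under 0.05. Not all of these are printed. Lgr5 and Car4 are named as list genes at 0 in a library, and these and all other names outside the rule were chosen after their values were seen. In the lists, Chi3l1, Fcer1a and Ahsp were not analysed here. Alternatives changed the pseudocount, the filter, the scaling or the variance model, added a replicate block, or left out each library.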

Additional observations from a re-analysis of the deposited data

How the results depend on the processing

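Across 14 alternatives, 0 of the 9 granule genes had an adjusted or unadjusted p under 0.05, and the lowest adjusted p was 0.543 (limma, Lcn2 without Dhps flox replicate 2). Their log2 fold changes kept their direction in 114 values, counting the 0 of Lcn2 under quantile normalization, and reversed in 12. A change of pseudocount, filter, variance model or block can hardly move the fold change of genes this abundant, so many of the 114 were fixed beforehand. All 12 reversals came from other scalings or from leaving out a library. Brought to equal FPKM sums, Olfm4 was at -0.020 and Cd177 at -0.016. With quantile normalization, Ltf was at 0.12, Ngp at -0.031, Olfm4 at -0.022 and Cd177 at -0.047. With equal sums without the 20 most abundant genes, Olfm4 was at -0.028 and Cd177 at -0.023. These scalings move each library by a factor and shift all genes alike, except the quantile one.

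With 1 library left out, Olfm4 ran from -0.056 to 0.081, Cd177 from -0.016 to 0.049, Ltf from -0.051 to 0.0049, Mmp8 from 0.012 to 0.22, Mmp9 from 0.00 to 0.12, Chil3 from 0.033 to 0.12, Ngp from 0.027 to 0.076, Camp from 0.11 to 0.15 and Lcn2 from 0.12 to 0.18, and the median of the 9 genes from 0.012 (without Dhps cko replicate 2) to 0.087. The lone sample of an arm is then assumed to vary like the others. The median was 0.019 with equal sums without the 20 most abundant genes. The summed level, Dhps cko over Dhps flox, was 1.04, and it was 1.02 with equal FPKM sums, 1.01 with quantile normalization and 1.01 with equal sums without the 20 most abundant genes.

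The count of all genes with an adjusted p under 0.05, 1 in the comparison above, was 0 with a pseudocount of 0.01, 4 with a mean of at least 1 FPKM, 0 with no filter, 2 with quantile normalization, 0 with each library left out in turn and 0 with the replicate block. The cause was not tested. Replicate numbers are only names here: deviations of same-numbered libraries from their group means correlated at -0.06 over 10629 genes, with 2 pairs. The replicate block changed no call on a granule gene.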
